A study of Mus musculus with 3 samples.

Results

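The comparison of peripheral blood (PB) at day 14 (D14) with day 11 (D11) after engraftment of BBC2 leukemia cells rested on 8981 of the 12792 cell barcodes kept in the series, 4567 from the D11 library and 4414 from the D14 library. Barcodes were chosen by having at least 200 detected genes and at most 10% of their unique molecular identifiers (UMIs) in mitochondrial genes. The mice were wild-type BALB/c, described in the study as young adult females. BBC2 models stem cell leukemia/lymphoma (SCLL): its cells resemble pro-B cells and carry GFP and a BCR-FGFR1 fusion introduced by a vector. The series description places D11 at an intermediate and D14 at a late stage of disease. A library of naive PB, from mice without BBC2 cells, was measured the same way and serves here only as background. Each time point is 1 library, and the number of mice in it was not given in the sources used here. Differences between D11 and D14 therefore cannot be told apart from differences between libraries, and no test was possible. All intervals below are 95% intervals for counting error only. Those of gene levels treat each UMI as an independent draw. Where the UMIs of a gene lie in few barcodes, they are too narrow for the sampling of cells.

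Blood leukocytes arise from marrow precursors, and an acute leukemia adds circulating blasts while normal production changes. Classical monocytes (cMono) express Ccr2 and Ly6c2 and leave the marrow first, and nonclassical monocytes (ncMono), which express Ace and Treml4, derive from them and patrol vessels. Immature neutrophils carry transcripts of the secondary granules, such as Ngp, Ltf and Camp, which are lost as the cells mature. Early B cells express the surrogate light chain genes Vpreb1 and Igll1, whereas mature B cells express Ms4a1 and Ighd.

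The kept barcodes held 36950092 UMIs at D11 and 51192755 at D14, with medians of 6389 and 6781 UMIs per barcode. Each barcode was placed in a class by the UMIs of marker genes, so every class name ends in "-like". The study labels the samples as immune cells, and the pan-leukocyte gene Ptprc was found in 74.6% of the D11 barcodes and 77.4% of the D14 barcodes, against 98.3% in the naive library. The 4 hemoglobin genes took 37.4% of the UMIs at D11, 11.8% at D14 and 2.42% in the naive library, although red cells had been lysed. Only 5 barcode sequences were shared by the kept barcodes of both libraries. RNA of other cells was found in barcodes of both leukemic libraries. Hbb-bs, a hemoglobin gene, had a UMI in 98.7% to 100% of the barcodes of each non-erythroid class at D11 and in 83.9% to 97.9% at D14. At D14 Ebf1, a B lineage factor, had a UMI in 32.6% of erythroid-like barcodes (median 6055 UMIs), against 7.75% at D11 (median 11155 UMIs), and in 98.5% of early B-like barcodes (median 31186 UMIs).

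Early B-like, ncMono-like and immature neutrophil-like barcodes made up more of the blood at D14 than at D11, and mature B-like, T-like, NK-like and mature neutrophil-like barcodes made up less. The largest ratio among the 9 main classes was that of the early B-like class, 98 barcodes at D11 and 785 at D14. It held 2.15% (Clopper-Pearson interval 1.75 to 2.61) of the barcodes at D11 and 17.8% (16.7 to 18.9) at D14, a ratio of 8.29 (Katz interval 6.75 to 10.2). Without the 5% of barcodes with the most UMIs the ratio was 23.9 (16.0 to 35.6), over 25 and 577 barcodes. In the naive library 3 barcodes passed this gate (0.0787%). Its barcodes were the deepest of the 9 classes at both times, with medians of 30985.5 and 31186 UMIs. The class held 8.59% of all UMIs at D11 and 49.2% at D14.

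Mature B-like barcodes went the other way. They were 11.0% of naive PB, 6.20% at D11 and 1.40% at D14, a D14 to D11 ratio of 0.227 (0.173 to 0.297). Early B-like barcodes per mature B-like barcode were 0.346 (0.272 to 0.437) at D11 and 12.7 (9.77 to 16.7) at D14. Some mature B-like barcodes at D14 also held UMIs of early B-like genes. Whether these were leukemia cells or doublets was not tested. Leaving out barcodes with at least 2 UMIs of Cdkn2a, Enpep and Gm32122, 3 genes of the early B-like class, a choice made after seeing the data, kept 281 of 283 mature B-like barcodes at D11 and 48 of 62 at D14, and the ratio became 0.177 (0.131 to 0.239).

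**Figure D1:**
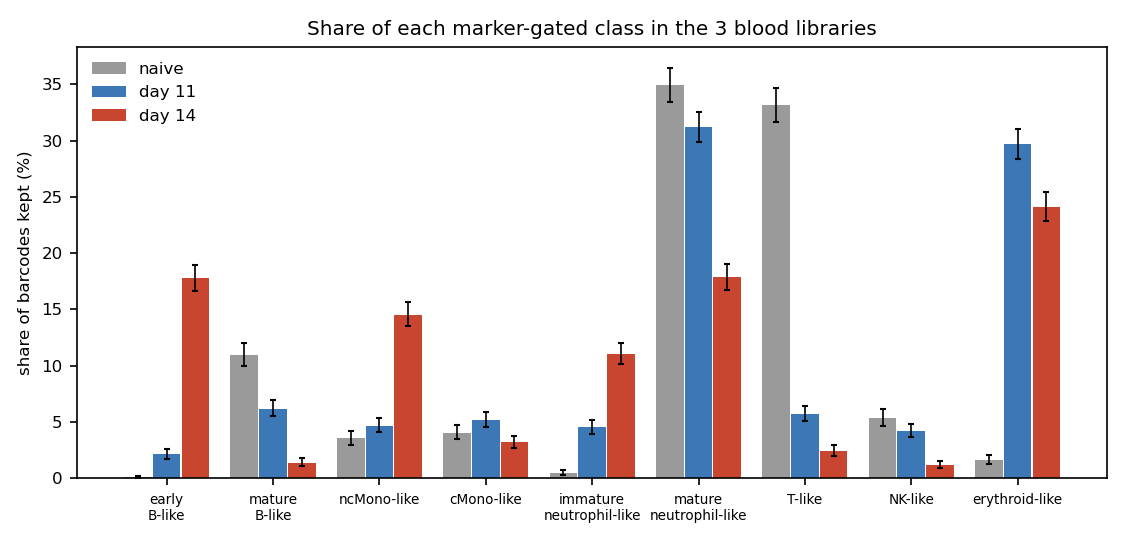
Share of kept barcodes (%) in each marker-gated class for the naive (grey), D11 (blue) and D14 (red) libraries, with Clopper-Pearson 95% intervals for counting error. The early B-like, ncMono-like and immature neutrophil-like bars are tallest at D14, and the T-like bars go from 33.1% in naive PB to 5.74% and 2.45%.

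The balance of the monocyte classes differed between the leukemic libraries. ncMono-like barcodes were 3.57% of naive PB, 4.69% (4.09 to 5.34) at D11 and 14.5% (13.5 to 15.6) at D14, a D14 to D11 ratio of 3.10 (2.67 to 3.6). cMono-like barcodes were 4.07%, 5.21% and 3.19%, with a ratio of 0.613 (0.50 to 0.752). The number of ncMono-like per cMono-like barcode was 0.877 in naive PB, 0.899 (0.744 to 1.09) at D11 and 4.55 (3.79 to 5.5) at D14. The naive and D11 intervals of this number overlapped, and the D14 interval lay above both.

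A larger part of the neutrophils was of the granule-rich, immature kind at D14. Immature neutrophil-like barcodes were 4.53% at D11 and 11.0% at D14 (ratio 2.43, 2.08 to 2.85), and mature neutrophil-like barcodes were 31.2% and 17.9% (ratio 0.572, 0.530 to 0.618). Immature per mature neutrophil-like barcodes were 0.0135 in naive PB, 0.145 at D11 and 0.618 at D14. The 3 libraries were thus in the order naive, D11, D14, with no overlap of their intervals.

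Lymphocytes took a smaller share. T-like barcodes were 33.1% of naive PB, 5.74% at D11 and 2.45% at D14, a D14 to D11 ratio of 0.427 (0.342 to 0.532). CD4 T-like barcodes numbered 132 and 49, and CD8 T-like barcodes 48 and 32. The share of the CD8 T-like class had a ratio of 0.690 (0.442 to 1.08), whose interval includes 1. NK-like barcodes were 4.23% at D11 and 1.20% at D14 (ratio 0.284, 0.210 to 0.384). These are shares of barcodes, so a lower share of a class and a higher share of the others cannot be told apart from one another.

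Erythroid-like barcodes, gated on hemoglobin, were 29.7% at D11 and 24.1% at D14 (ratio 0.813, 0.759 to 0.871), and 1.65% in the naive library. Under a stricter filter, with 500 genes or more and up to 5% mitochondrial UMIs, 136 and 40 remained and the ratio was 0.303 (0.213 to 0.429). Under the main filter their median depth was 11155 UMIs at D11 and 6055 at D14. They held 40.6% and 12.4% of all UMIs, a share that also depends on the UMIs of the other classes. Platelet-like barcodes numbered 1 and 17. With erythroid-like and platelet-like barcodes left out of the denominator, the early B-like share was 3.05% at D11 and 23.6% at D14, a ratio of 7.72 (6.29 to 9.47).

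UMI counts were also summed over all barcodes and scaled to a common library total (CPM). Of 8770 genes that reached 10 CPM in 1 or both libraries, 2702 (30.8%) were over 2-fold higher at D14 and 245 (2.79%) over 2-fold lower. The median log2 ratio of all 8770 genes was 0.70, whereas the hemoglobin share of the total was lower at D14 (11.8%) than at D11 (37.4%). With the hemoglobin genes left out of the total, 926 genes were over 2-fold higher and 610 lower, with a median of 0.18. With TMM factors these numbers were 663 and 637, and without erythroid-like barcodes 858 and 568.

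The early B-like class held the most D14 UMIs for 2647 of the 2702 higher genes (98.0%), as it did for 84.0% of all genes tested. Within the early B-like class itself, 1634 of the 2647 reached 50 CPM, and 34 of these were over 2-fold higher and 7 lower. The median log2 ratio of the 1634 inside the class was -0.12. Over all genes measured in the class, 86 of 4125 (2.08%) were higher and 14 (0.339%) lower, so the 34 are near the share of the class. For 45 of the higher genes the ncMono-like class held the most UMIs, and 20 of the 43 that could be measured in that class were over 2-fold higher in it. Among all tested genes with most D14 UMIs in that class, 36 of 660 measured were. Because the 45 were picked for a higher whole sum, the choice itself favors a higher level inside the class, and the count is a description. The 245 lower genes had their most D11 UMIs in mature neutrophil-like (60 genes), erythroid-like (50), mature B-like (38), NK-like (38) and CD4 T-like (36) barcodes. The same split of all tested genes by D11 UMIs was not counted, so these numbers have no background and are a description only.

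**Figure D2:**
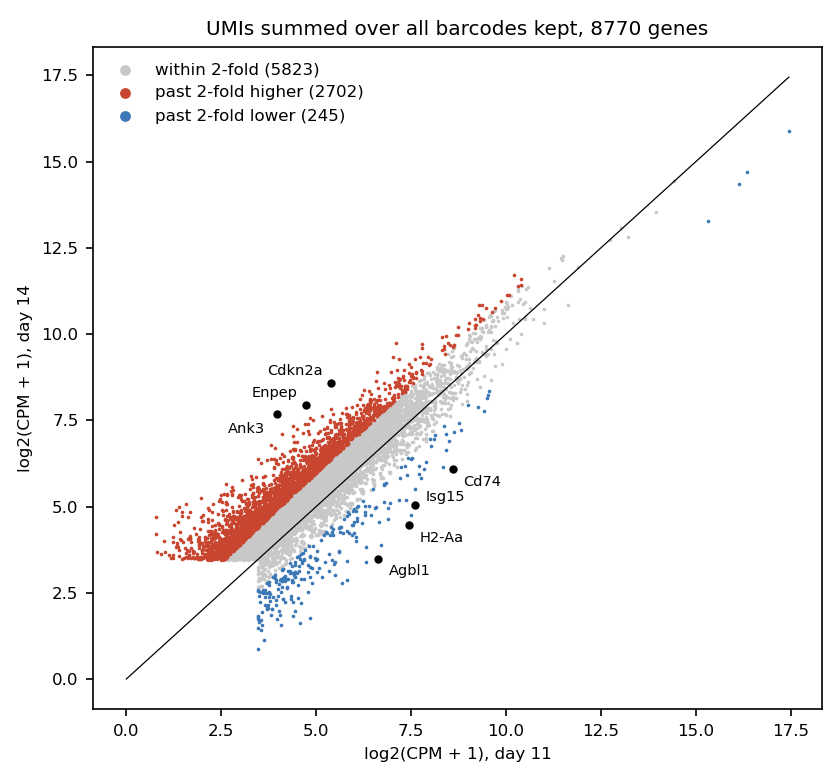
Log2(CPM + 1) at D11 (horizontal) and D14 (vertical) of UMIs summed over all kept barcodes, with 1 point per gene for the 8770 genes tested. Red points (2702) are over 2-fold higher at D14, blue points (245) over 2-fold lower, and black points are genes named in the text; the cloud lies above the diagonal by the median of 0.70.

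The 10 named genes with the highest D14 to D11 ratio in the whole sum had most of their UMIs in the early B-like class. Ank3, which encodes the membrane adaptor ankyrin-G (chromosome 10, 69398773 to 70027438, GRCm38), was 14.7 CPM at D11 and 202 at D14, a log2 ratio of 3.78 (3.66 to 3.91). Enpep encodes the aminopeptidase BP-1, a surface marker of early B cells (chromosome 3, 129269175 to 129332720), and was 25.6 and 243 CPM, a log2 ratio of 3.25 (3.15 to 3.34). Cdkn2a, the locus of the cell cycle inhibitors p16Ink4a and p19Arf, was 40.8 and 378 CPM, a log2 ratio of 3.21 (3.14 to 3.29). In the naive library these genes were 1.70, 0.606 and 0.265 CPM. The early B-like class held 93.3% of the D14 UMIs of Ank3, 94.8% of those of Enpep and 96.2% of those of Cdkn2a.

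The other 7 were Tmem108, Gm32122, Gpm6b, Zc3h12b, Trim2, Adgrl2 and Gfra2, with log2 ratios from 2.83 for Gfra2 to 3.08 for Tmem108. All 10 kept a log2 ratio between 2.27 and 3.23 without erythroid-like barcodes. Inside the early B-like class, Enpep was 277 CPM at D11 and 468 at D14, Cdkn2a 442 and 739, and Gm32122 146 and 199. None of these 3 within-class differences reached 2-fold, whereas Ank3 went from 139 to 384 CPM in the class.

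The named genes with the lowest ratio had most of their D11 UMIs in 3 classes. From the mature B-like class came H2-Aa and H2-Eb1, the α and β chains of MHC class II, Cd74, their invariant chain, and Agbl1. H2-Aa was 289 CPM in naive PB, 174 at D11 and 21.0 at D14, a log2 ratio of -3.05 (-3.14 to -2.96), and Cd74 was 720, 386 and 66.6 CPM, a log2 ratio of -2.53 (-2.59 to -2.48). From the erythroid-like class came Slc4a1, the band 3 anion exchanger, Trim10 and Apol11b, with 98.1% to 99.0% of their D11 UMIs in it. Slc4a1 was 179 CPM at D11 and 26 at D14, a log2 ratio of -2.78 (-2.87 to -2.70). The remaining genes were Cd101, with 77.5% of its D11 UMIs in mature neutrophil-like barcodes, and Isg15 (55.7% in erythroid-like barcodes), an interferon-induced ubiquitin-like protein, at 194 and 32.1 CPM (log2 ratio -2.59, -2.67 to -2.52).

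Lists of genes with a common role were then followed in every class, where scaling mattered less. TMM factors moved log2 ratios by -0.06 to 0.02 in 7 of the 9 classes, by -0.17 in the mature B-like class, by -0.36 in the erythroid-like class and by -0.61 in the whole sum. Within a class, a gene was measured when it reached 50 CPM in either library. The early B-like, mature B-like and NK-like classes had under 100 barcodes in 1 library, and their gene-level ratios were added after seeing the data. In the whole sum the median of the MHC class I list was 0.48, that of the secondary granule list 0.56 and that of the Nrf2 list 0.12, and all 3 were below 0 with TMM factors (-0.14, -0.05 and -0.49), so no direction is given for them there.

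**Figure D3:**
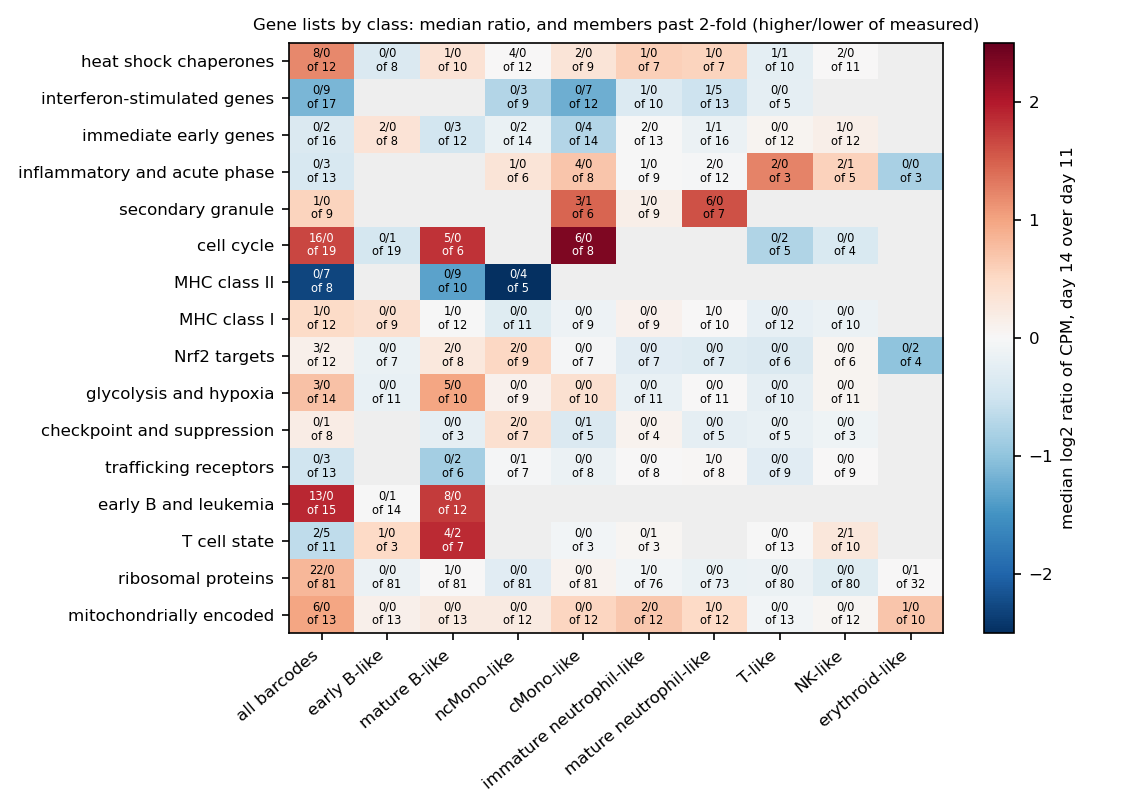
Median log2 ratio of CPM, D14 over D11, for 16 gene lists (rows) in all barcodes and in 9 classes (columns), with the number of members over 2-fold higher and lower of those measured; grey cells have fewer than 3 measured members, and colours end at 2.5 in either direction. Interferon-stimulated genes are bluest in the cMono-like column (median -1.22), and cell cycle genes are red in the cMono-like (2.33) and mature B-like (1.81) columns and pale blue in the early B-like column (-0.43).

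Among heat shock chaperones, which fold stress-damaged proteins, Hspa1a and Hspa1b together were over 2-fold higher at D14 in each of the 9 classes. They encode the inducible Hsp70 and lie near each other on chromosome 17 (34969190 to 34972156 and 34956436 to 34959238, minus strand). They are near-identical, so reads of one may have been counted for the other or dropped, and their UMIs were summed. In ncMono-like barcodes the pair was 12.5 CPM in naive PB, 362 at D11 and 1199 at D14, a D14 to D11 log2 ratio of 1.73 (1.62 to 1.84). In cMono-like barcodes it was 18.9, 132 and 504 CPM (log2 ratio 1.93, 1.77 to 2.09), and in T-like barcodes 2.16, 24.8 and 173 CPM (2.81, 2.33 to 3.30). The 3 libraries were in the same order, naive, D11, D14, in each of the 7 classes with a naive UMI of the pair.

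The other classes gave log2 ratios of 2.59 (2.04 to 3.20) in early B-like, 2.12 (1.5 to 2.76) in mature B-like, 3.31 (2.69 to 4.0) in immature neutrophil-like, 2.12 (1.85 to 2.39) in mature neutrophil-like, 1.94 (1.36 to 2.51) in NK-like and 2.43 (1.80 to 3.09) in erythroid-like barcodes. The levels were lowest in the erythroid-like class, at 2.07 and 11.1 CPM, where hemoglobin genes took 89.0% and 88.2% of the UMIs. At D14 the pair had 57 UMIs in NK-like, 63 in mature B-like and 71 in erythroid-like barcodes, against 7799 in ncMono-like barcodes. In erythroid-like barcodes Cdkn2a, a gene of the early B-like class, was 0.734 and 13.2 CPM, whereas S100a8 was 637 and 491 CPM. The part of RNA from other cells in the values of the pair was not tested in any class. After thinning every barcode to 1000 UMIs, 24.8% (19.1 to 31.1) of ncMono-like barcodes at D11 and 52.3% (48.4 to 56.3) at D14 had a UMI of the pair, with no barcode too shallow. Unthinned, these shares were 59.8% and 79.6% at median depths of 8175 and 9285.5 UMIs. In the erythroid-like class the thinned shares were 0.222% and 1.22% and the unthinned ones 1.25% and 4.13%. Most UMIs left there after thinning were of hemoglobin genes, so these shares are not a like background for the other classes.

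**Figure D4:**
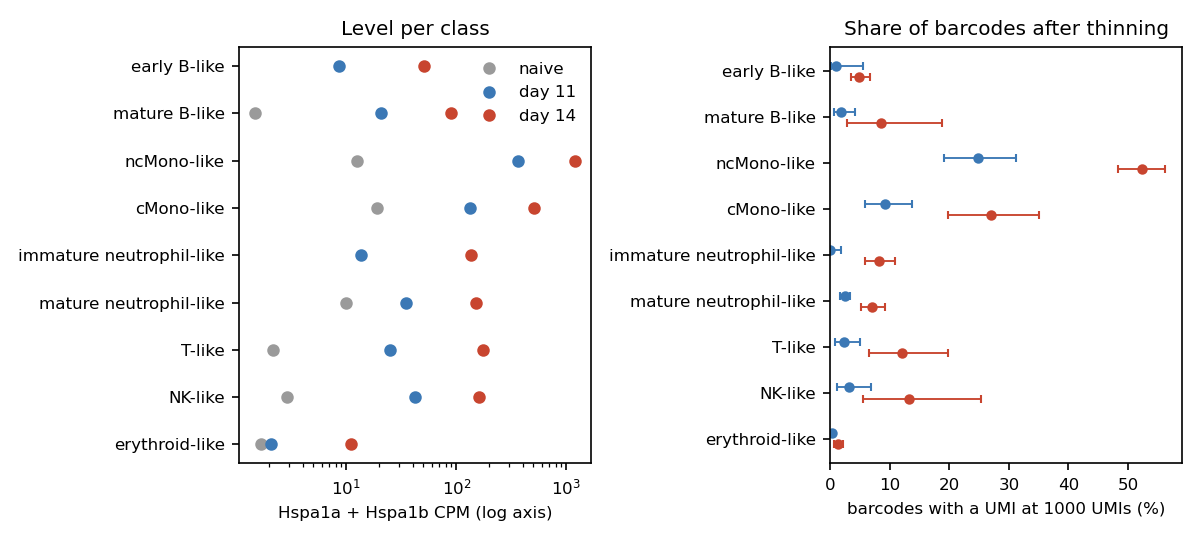
Left, summed CPM of Hspa1a and Hspa1b (log axis) in each class for the naive (grey), D11 (blue) and D14 (red) libraries, with no point for a class without a UMI. Right, share of barcodes (%) with a UMI of the pair after thinning to 1000 UMIs at D11 and D14, with Clopper-Pearson 95% intervals; the D14 point lies to the right of the D11 point in every class.

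The rest of the chaperone list had smaller ratios. In ncMono-like barcodes 4 of 12 measured members were over 2-fold higher and 0 lower, in a class where 67 of 3890 genes (1.72%) were higher and 36 (0.925%) lower. Beside the pair these were Hsph1, an Hsp110 co-chaperone, at 64.7 CPM at D11 and 130.4 at D14, and Bag3, an Hsp70 co-factor, at 35.4 and 74.6 CPM. The median of the list there was 0.02. In early B-like barcodes 0 of 8 measured members were over 2-fold in either direction, with a median of -0.36. Of all genes measured in that class, 2.08% were higher and 0.339% lower. Unlike the 12 in ncMono-like barcodes, those 8 left out Hspa1a and Hspa1b, neither of which reached 50 CPM by itself there. In T-like barcodes Hspd1, a mitochondrial chaperonin, was 101 and 48.6 CPM, a log2 ratio of -1.06 (-1.57 to -0.57).

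Because the summed level of Hspa1a and Hspa1b is reported in each class, their promoters are shown from RefSeq (GRCm38.p6, minus strand, 250 bases before to 50 bases after the start), Hspa1a at chr17:34972107-34972406 and Hspa1b at chr17:34959189-34959488. Capitals mark the 4 of 300 bases that differ between them (98.7% identity).
Hspa1a: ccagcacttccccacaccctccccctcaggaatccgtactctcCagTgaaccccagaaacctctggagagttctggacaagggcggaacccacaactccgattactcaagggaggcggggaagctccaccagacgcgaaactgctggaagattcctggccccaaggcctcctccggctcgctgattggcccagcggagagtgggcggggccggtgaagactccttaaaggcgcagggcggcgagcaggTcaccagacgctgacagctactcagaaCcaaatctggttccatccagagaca
Hspa1b: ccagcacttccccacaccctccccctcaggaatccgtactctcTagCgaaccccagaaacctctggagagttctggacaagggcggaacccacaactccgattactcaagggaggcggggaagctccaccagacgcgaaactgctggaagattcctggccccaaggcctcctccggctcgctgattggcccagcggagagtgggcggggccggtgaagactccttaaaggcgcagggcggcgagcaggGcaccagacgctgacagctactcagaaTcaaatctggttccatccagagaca

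The heat shock element was searched as GAANNTTCNNGAA or its reverse complement TTCNNGAANNTTC, so that both strands were covered. It was found in 198 of 32851 RefSeq promoters of this length (0.603%). Of 10 chaperone list genes with a promoter in the table, 3 held a match, Hsph1 and the neighbours Hspe1 and Hspd1, whose promoters overlap. The windows of Hspa1a and Hspa1b held no match to these letters. No mismatch was allowed, so elements that differ from these letters were not counted. A missing match therefore does not show that a promoter lacks a heat shock element.

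Interferon-stimulated genes, the antiviral effectors induced by interferon signalling, had members over 2-fold lower at D14 in cMono-like, ncMono-like and mature neutrophil-like barcodes. In cMono-like barcodes 7 of 12 measured members were over 2-fold lower and 0 higher, with a median log2 ratio of -1.22, in a class where 58 of 3854 genes (1.5%) were lower and 72 (1.87%) higher. The summed level of the list was 8136 CPM in naive PB, 6588 at D11 and 3399 at D14. Ifi44 was 345, 217 and 53.5 CPM (D14 to D11 log2 ratio -2.02, -2.27 to -1.78), and Rtp4 was 112, 73.5 and 12.2 CPM (-2.59, -3.13 to -2.09). Irf7, the factor that amplifies interferon production, was 200, 137 and 49.7 CPM (-1.47, -1.74 to -1.20). D11 lay nearer to the naive library than to D14 in all 3 genes on the log scale.

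In ncMono-like barcodes 3 of 9 members were over 2-fold lower, Ifi27l2a (829.98 CPM at D11 and 177 at D14), Ifi44 (60.1 and 17.7) and Irf7 (60.1 and 25.5). Of all genes measured in that class, 36 of 3890 (0.925%) were lower. In mature neutrophil-like barcodes 5 of 13 were over 2-fold lower and 1 higher, and 8 had a log2 ratio below 0 and 5 above it, in a class with 49 of 2991 genes (1.64%) lower and 77 (2.57%) higher. Rsad2, which encodes viperin, was 210 CPM in naive PB, 306 at D11 and 79.1 at D14 (log2 ratio -1.95, -2.17 to -1.74), and Ifit1 was 56.7, 103 and 30.2 CPM (-1.77, -2.14 to -1.42). Here D11 was above the naive library for both. The member that was higher was Zbp1, a sensor of left-handed nucleic acids, at 30.0 and 65.4 CPM.

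Not every class shared this. In T-like barcodes 0 of 5 measured members passed 2-fold, where 0.894% of all genes were higher and 0.736% lower. In immature neutrophil-like barcodes 1 of 10, Gbp2, was higher and 0 lower, where 1.53% of all genes were higher and 0.781% lower. No member reached 50 CPM in early B-like barcodes, where the list summed to 122 CPM at D11 and 174 at D14. In erythroid-like barcodes Isg15 was 266 and 78 CPM (log2 ratio -1.77, -1.91 to -1.63). Over all barcodes, 9 of 17 members were over 2-fold lower and 0 higher, where 2.79% of 8770 genes were lower and 30.8% higher. The early B-like class, which held little of this list, took 8.59% of all UMIs at D11 and 49.2% at D14. The part of composition in the count over all barcodes was not tested.

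Isg15 and Ifit1 are shown as members picked by hand, and both held a match to the element searched. Capitals mark the interferon-stimulated response element, searched as GAAANNGAAA on both strands, where matches may overlap. The promoters are from RefSeq (GRCm38.p6), at chr4:156200769-156201068 on the minus strand with 3 overlapping matches and at chr19:34640639-34640938 on the plus strand with 2.
Isg15: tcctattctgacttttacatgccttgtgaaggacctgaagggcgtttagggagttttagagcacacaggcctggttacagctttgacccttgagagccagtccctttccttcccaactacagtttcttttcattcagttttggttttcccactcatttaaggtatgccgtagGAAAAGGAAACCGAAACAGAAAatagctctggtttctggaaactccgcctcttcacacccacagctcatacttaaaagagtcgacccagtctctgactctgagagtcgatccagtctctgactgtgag
Ifit1: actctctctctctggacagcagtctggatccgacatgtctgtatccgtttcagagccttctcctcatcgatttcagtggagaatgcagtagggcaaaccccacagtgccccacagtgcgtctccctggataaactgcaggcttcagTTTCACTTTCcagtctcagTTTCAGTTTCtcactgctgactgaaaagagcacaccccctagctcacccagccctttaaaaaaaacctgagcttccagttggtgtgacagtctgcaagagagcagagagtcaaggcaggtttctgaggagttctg

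The element was present in 1131 of 32851 promoters (3.44%) and in 10 of the 16 list genes with a promoter in the table. Ifi44 and Irf7, over 2-fold lower in both cMono-like and ncMono-like barcodes, held no match. This motif was added after the values had been seen, and a match describes letters, not binding.

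**Figure D5:**
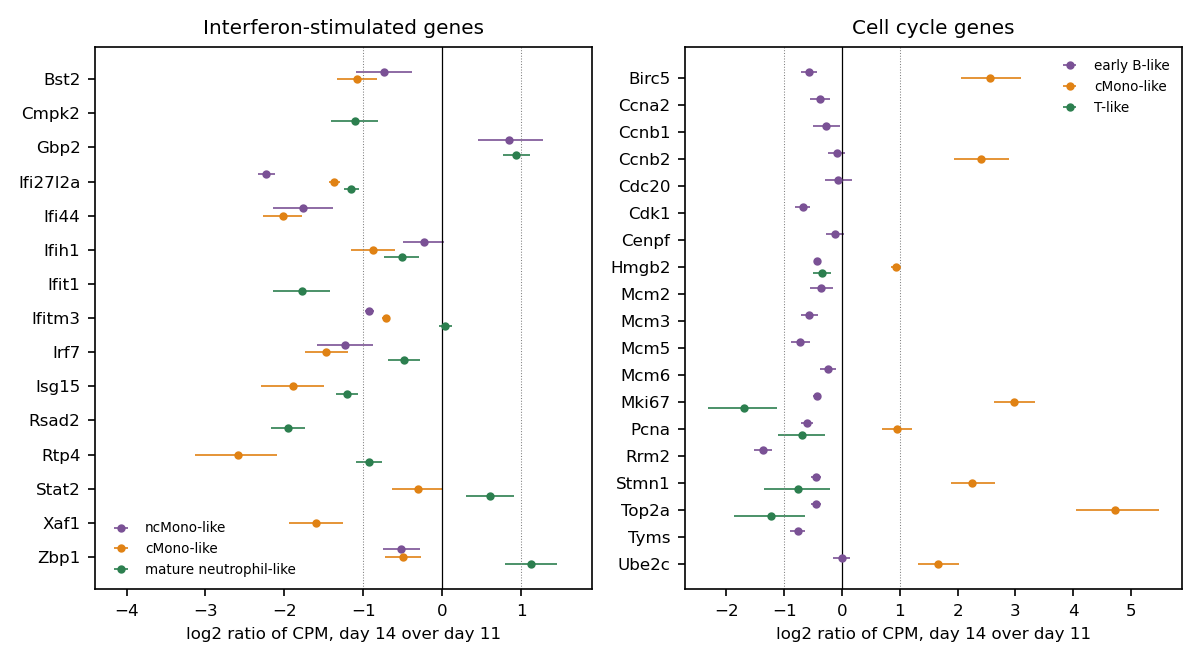
Log2 ratio of CPM, D14 over D11, with 95% counting intervals, for 15 interferon-stimulated genes measured in ncMono-like, cMono-like and mature neutrophil-like barcodes (left) and for cell cycle genes in early B-like, cMono-like and T-like barcodes (right); dotted lines mark 2-fold. Most interferon-stimulated genes lie left of 0, with Zbp1 (1.12) in mature neutrophil-like barcodes the farthest to the right. Cell cycle genes lie right of 0 in cMono-like barcodes, up to Top2a (4.72), and left of or at 0 in the other classes drawn.

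Cell cycle genes were higher at D14 in cMono-like barcodes and lower or little different in early B-like and T-like barcodes. Of 8 measured cell cycle genes 6 were over 2-fold higher in cMono-like barcodes and 0 lower, with a median log2 ratio of 2.33. Over all measured genes of the class, 72 of 3854 (1.87%) were higher and 58 (1.5%) lower. Top2a, topoisomerase IIα, was 2.55 CPM in naive PB, 5.63 at D11 and 148 at D14 (log2 ratio 4.72, 4.04 to 5.49), and Mki67 was 13.8, 23.1 and 182 CPM (2.97, 2.62 to 3.34). Hist1h1b, a linker histone made in S phase, was 15.8, 8.76 and 206 CPM. Top2a was found in 13 of 238 cMono-like barcodes at D11 and 36 of 141 at D14, with at most 17.9% of its D14 UMIs in 1 barcode. After thinning, 1.26% (0.261 to 3.64) and 7.80% (3.96 to 13.5) of the barcodes had a UMI of Top2a, and median depths were 13541 and 20659 UMIs.

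Among early B-like genes, Enpep was 2.56 CPM and Cdkn2a 2.89 CPM in this class at D14, and Ebf1 had a UMI in 27.7% of its barcodes. Without the 8 D11 and 34 D14 barcodes that held a UMI of Cdkn2a, Enpep, Gm32122, Vpreb1 or Igll1 or at least 2 UMIs of Ebf1, a choice made after seeing the data, 7 of 9 measured cell cycle genes were over 2-fold higher, with a median of 2.45. In mature B-like barcodes 5 of 6 cell cycle genes were over 2-fold higher (median 1.81). Their D14 sum held the mature B-like barcodes with early B-like genes described above. Of all genes measured in that class, 441 of 4141 (10.6%) were higher. Of 6 measured secondary granule genes in cMono-like barcodes 3 were over 2-fold higher and 1, Cd177, lower, with a median of 1.46. The shares over all genes there were 1.87% higher and 1.5% lower. Chil3 was 105 CPM in naive PB, 257 at D11 and 1296 at D14 (log2 ratio 2.33, 2.23 to 2.44), and Prtn3, proteinase 3, was 21.5, 59.4 and 159 CPM (1.42, 1.18 to 1.67). Prtn3 is also a marker of the granulocyte progenitor gate, which held 7 barcodes at D11 and 2 at D14.

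The early B-like class had differences of its own. All 19 cell cycle genes were measured in it, 1 was over 2-fold lower and 0 higher, and the median log2 ratio was -0.43, in a class where 86 of 4125 genes (2.08%) were higher and 14 (0.339%) lower. Mki67 was 558 CPM at D11 and 414 at D14, and Rrm2, the small subunit of ribonucleotide reductase, was 141 and 54.4 CPM (log2 ratio -1.37, -1.53 to -1.21). The other 4 of the 5 named genes with the lowest ratio, gate genes left out, encode histones, with Hist1h1b at 1144 and 462 CPM, Hist1h1a at 181 and 79.2, Hist2h2ac at 183 and 81.7, and Hist1h3c at 195 and 92.3. In T-like barcodes Mki67 was 103 and 31.7 CPM, but 31.7% of its D11 UMIs were in 1 barcode.

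On the higher side of the early B-like class, Nav2, neuron navigator 2, was 7.87 CPM at D11 and 141 at D14 (log2 ratio 4.16, 3.6 to 4.79). Ly6d, a surface protein of B-committed progenitors, was 23.3 and 131 CPM (2.5, 2.16 to 2.85), Ahnak 112 and 509.8 (2.18, 2.03 to 2.34), Emp3 30.6 and 136, and Lmna, lamin A/C, 47.9 and 203. Nav2 was found in 16 of 98 barcodes at D11 and 431 of 785 at D14, and after thinning in 1.02% (0.0258 to 5.55) and 8.70% (6.82 to 10.9). S100a4, a calcium-binding protein of motile cells, had 2 UMIs in 2 of 98 barcodes at D11 and 1905 UMIs in 140 of 785 at D14 (6.91, 5.05 to 9.95). Of the early B identity list 0 of 14 measured members were over 2-fold higher and 1 lower, with a median of -0.02. The exception was Dntt, the terminal transferase that adds bases at V(D)J joins and 1 of the genes used to gate the class, at 362 and 96.6 CPM (-1.90, -2.01 to -1.80).

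MHC class II genes, which present antigen to CD4 T cells, were lower at D14 in mature B-like and ncMono-like barcodes. In mature B-like barcodes 9 of 10 members were over 2-fold lower and 0 higher, with a median of -1.34, in a class where 157 of 4141 genes (3.79%) were lower and 441 (10.6%) higher. Cd74 was 5691 CPM in naive PB, 5634 at D11 and 2239.9 at D14, and H2-Aa was 2198, 2377 and 923. The D14 sum held the 14 barcodes with early B-like genes described above, and Ank3 was 1.78 and 324 CPM in this class. The part of those barcodes in the class II values was not tested.

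In ncMono-like barcodes 4 of 5 measured class II genes were over 2-fold lower, in a class where 36 of 3890 genes (0.925%) were. H2-Aa was 311 CPM in naive PB, 449 at D11 and 4.92 at D14 (log2 ratio -6.51, -7.07 to -6.0), and Cd74 was 780, 919 and 30.0 CPM (-4.94, -5.16 to -4.72). A UMI of H2-Aa was found in 54 of 214 barcodes at D11 and in 13 of 642 at D14. The 2 highest D11 barcodes held 27.2% of its UMIs there. After thinning, the shares with an H2-Aa UMI were 14.5% (10.1 to 19.9) and 0.312% (0.0377 to 1.12). Adam23, the named gene with the lowest ratio in this class, had 204 UMIs at D11 in only 2 barcodes and 4 at D14.

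Of the 5 named genes with the highest ratio in ncMono-like barcodes, Ikbke, a kinase of the innate immune NF-κB and interferon pathways, was 3.57 CPM in naive PB, 27.2 at D11 and 175 at D14 (log2 ratio 2.68, 2.28 to 3.11). Lifr, the receptor of leukemia inhibitory factor, was 48.3, 47.2 and 302 CPM (2.68, 2.38 to 3.0), Arap2 was 28.2 and 179.7 CPM, and St7 45.2 and 232. Airn, a noncoding RNA, was 23.1 and 135 CPM. Ikbke was in 19.2% of the barcodes at D11 and 68.7% at D14, and in 2.34% and 15.4% after thinning. On the lower side were Aif1, an actin-binding protein of myeloid cells (126 and 36.0 CPM), Hpgd, which degrades prostaglandins (112 and 36.7), and Plbd1 (238 and 82.9). Ccr2, the receptor for marrow exit and a gene of the cMono gate, was 144 CPM in naive PB, 89.3 at D11 and 13.4 at D14.

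Some Nrf2 targets, which answer oxidative stress, and some checkpoint genes were higher at D14 in ncMono-like barcodes, where 1.72% of all genes were. Of 9 measured Nrf2 targets 2 were over 2-fold higher and 0 lower, with a median log2 ratio of 0.51, Hmox1, heme oxygenase 1, at 67.8 and 206 CPM (log2 ratio 1.6, 1.35 to 1.87), and Txn1, thioredoxin, at 403 and 911 (1.18, 1.07 to 1.28). For Hmox1, 28.0% of the D11 UMIs were in 1 barcode. Of 7 measured checkpoint and suppression genes 2 were over 2-fold higher and 0 lower (median 0.39), the costimulatory ligand Cd80 at 33.4 and 85.0 CPM and the PD-1 ligand Pdcd1lg2 at 24.6 and 59.0 CPM. No Nrf2 target passed 2-fold in cMono-like barcodes.

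In cMono-like barcodes some inflammatory genes were higher and some immediate early genes lower at D14, where 1.87% of all genes were higher and 1.5% lower. Of 8 measured inflammatory genes 4 were over 2-fold higher, the acute phase protein Saa3 at 8.13 and 107 CPM (log2 ratio 3.72, 3.15 to 4.36, with 50% of its D11 UMIs in 1 barcode), the decoy receptor Il1r2 at 10.6 and 58.0, and the alarmins S100a8 at 1011 and 3215 and S100a9 at 956 and 2604. Alarmin RNA was also found outside its source cells at D14, since S100a8 had a UMI in 70.6% of erythroid-like barcodes (28.4% at D11), although its level there was 637 CPM at D11 and 491 at D14. Hbb-bs was 1370 and 4172 CPM in cMono-like barcodes, but 3945 and 1023 CPM in immature neutrophil-like and 3200.4 and 395 CPM in NK-like barcodes. The part of ambient RNA in these values was not tested. Of 14 immediate early genes 4 were lower, Dusp1 at 471 and 137 CPM (-1.78, -1.94 to -1.63), Fosb at 196 and 72.5, Atf3 at 150 and 69.6, and Fos at 853 and 399. Apoe, 1 of the 5 named genes with the lowest ratio in this class, was 1825 CPM in naive PB, 646 at D11 and 188 at D14.

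The mature neutrophil-like class was itself bounded by under 5 UMIs of Ngp, Ltf and Camp, so its granule transcripts are given as a description. Of 7 measured secondary granule genes 2, Ngp and Mmp8, belonged to a gate, and of the 5 others 4 were over 2-fold higher at D14 and 0 lower. These were Lcn2, Chil3, Cd177 and Wfdc21, in a class where 77 of 2991 genes (2.57%) were higher. Mmp8, neutrophil collagenase and a gene of the neutrophil gate, was 323 CPM in naive PB, 490.4 at D11 and 1856 at D14 (1.92, 1.85 to 1.99), and Lcn2, the siderophore-binding lipocalin 2, was 438, 939.9 and 2247 CPM (1.26, 1.20 to 1.31). Stefins inhibit cysteine proteases, and Stfa2 was 58.2 and 271 CPM in this class and 150.1 and 545 CPM in immature neutrophil-like barcodes. Stfa2, Stfa3 and Stfa2l1 are close paralogs between which reads may be split. The highest ratio among the named genes was that of Slc24a3, a sodium and calcium exchanger, at 7.80 CPM in naive PB, 10.5 at D11 and 171 at D14 (4.02, 3.6 to 4.48).

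On the lower side of the mature neutrophil-like class, Cd101, a surface protein of fully mature neutrophils, was 424 CPM in naive PB, 329 at D11 and 116 at D14 (log2 ratio -1.50, -1.68 to -1.32). Ndrg1 was 112, 106 and 26.2 CPM. In immature neutrophil-like barcodes 43 of 2816 genes (1.53%) were over 2-fold higher and 22 (0.781%) lower. Asprv1 was 87.8 and 236 CPM and Tagln2 99.7 and 264 CPM in them, and Thbs1, thrombospondin 1, was 162 and 72.5 CPM. Only 1 of the 9 secondary granule genes, Chil3, passed 2-fold there (358 and 833 CPM). The immature gate itself rests on 3 of these granule genes.

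T-like barcodes had few genes past 2-fold. Of 3802 genes 34 (0.894%) were over 2-fold higher and 28 (0.736%) lower, and 0 of 13 measured genes of T cell state passed 2-fold, with a median of -0.00. The galectin Lgals1 was 891 CPM at D11 and 460.2 at D14, and Atp2b4, a plasma membrane calcium pump, was 76.8 and 164 CPM. NK-like barcodes, 193 and 53 in number, had 72 of 4023 genes (1.79%) higher and 76 (1.89%) lower. Gzmb, granzyme B, was 198 and 572 CPM (log2 ratio 1.53, 1.25 to 1.81), and Cd27 and Tcf7, genes of less mature NK cells, were 108 and 28.5 CPM and 106 and 34.1 CPM. With 10 D14 UMIs of Cd27 and 12 of Tcf7, those ratios have wide intervals (-3.01 to -0.99 and -2.62 to -0.78).

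Erythroid-like barcodes had 237 measured genes, of which 5 (2.11%) were over 2-fold higher and 34 (14.3%) lower. Prdx2, the main peroxiredoxin of red cells, was 432 CPM in naive PB, 926 at D11 and 237 at D14 (log2 ratio -1.97, -2.04 to -1.89). Blvrb, biliverdin reductase B, was 261 and 91.0 CPM, Trim10 192 and 73.9, and Car2, carbonic anhydrase 2, 353 and 139. Aldh1a1, a retinaldehyde dehydrogenase abundant in mouse red cells, was 67.7 and 138 CPM (1.03, 0.90 to 1.16). Since hemoglobin took most of the UMIs here, the number of genes measured depends on the total: without the hemoglobin genes 2154 genes were measured, 210 higher and 190 lower.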

How the data were processed

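Single-cell RNA-seq (10x Genomics 3′) libraries of PB after red cell lysis and dead cell removal were used as the authors deposited them, as whole-number UMI counts per gene and barcode. The submitters' processing notes name Cell Ranger 7.1.0 and mm10, whereas the matrix headers name Cell Ranger 5.0.1, and it is not settled which version made the files. The authors' own cell labels were not used here. Whether GFP+ cells were removed before loading is not given in the sources used here.

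Of 8536 barcodes at D11 and 9337 at D14, 3407 and 3493 had under 200 genes, and those over 10% mitochondrial UMIs were also left out, leaving 53.5% and 47.3%. A barcode passed a lineage gate with at least 3 UMIs over at least 2 of its marker genes. It entered the lineage with at least 2 times the UMIs of the next lineage. Barcodes that passed a gate without this lead, or with 20% to 50% of UMIs in hemoglobin genes, were set aside as mixed (146 and 111). Other barcodes that passed no gate were ungated (112 and 122). Mixed and ungated barcodes stayed in the denominator of the shares. Barcodes with at least 50% of UMIs in hemoglobin genes, or at least 20% and no lineage, were erythroid-like. Classes within a lineage went by the larger marker sum, and immature neutrophil-like barcodes had at least 5 UMIs of granule markers. No doublet caller was run. UMI counts were summed per library and class and scaled to CPM. Shares carry Clopper-Pearson, ratios of shares Katz and log2 ratios exact conditional binomial 95% intervals. Genes with at least 10 CPM (whole sum) or 50 CPM (classes) in either library were called past 2-fold. A count of 0 was set to a floor of 3 UMIs. With 1 library per group no p-value was computed.

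Named genes were the 10 with the highest and the 10 with the lowest whole-sum ratio at 50 CPM or more, and the 5 and 5 per class at 100 CPM or more whose CPM was at least 0.25 of the highest class, without hemoglobin, mitochondrial, ribosomal, receptor segment and gate genes. Members of the lists and genes the study discusses were also named. The classes, lists and genes were chosen with earlier results of these data known, and list members that the text names beside a count of 5 or fewer were in part chosen after their values were seen. Alternatives were other barcode filters, totals (TMM of edgeR 4.0.16, median of ratios of DESeq2 1.42.0, used only for scaling), minimum levels and thinning to 1000 UMIs. Scripts ran in Python 3.11.15 (NumPy 2.4.6, SciPy 1.17.1, pandas 2.3.3, matplotlib 3.10.9) and R 4.3.3. The ratio step was tested on simulated sums of independent UMIs, without concentration in few barcodes. Gene positions are those of GENCODE on GRCm38. Some genes that met these rules are not reported here.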

Additional observations from a re-analysis of the deposited data

Results flagged for a closer look

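Several genes had D14 to D11 log2 ratios past 2-fold in opposite directions in different classes, and none of these differences was tested, since each time point is 1 library. Cd177, a neutrophil surface protein, was 1.63 in mature neutrophil-like and -1.68 in cMono-like barcodes. Hist1h1b was 4.56 in cMono-like and 2.66 in mature B-like barcodes but -1.31 in early B-like, -2.91 in NK-like and -4.45 in T-like barcodes. Mki67 was 2.97 in cMono-like and 2.53 in mature B-like barcodes and -1.70 in T-like barcodes. As given above, 1 T-like barcode held a large part of the D11 Mki67 UMIs of that class. Klf2, a quiescence factor of lymphocytes, was 1.52 in early B-like and -1.23 in mature B-like barcodes. Ndrg1 was 1.30 in early B-like and -2.01 in mature neutrophil-like barcodes. S100a4 was 6.91 in early B-like and 4.54 in mature B-like barcodes and -1.37 in immature neutrophil-like barcodes, where 27.9% of its D11 UMIs were in 1 barcode. All mature B-like values here are from a D14 sum that held the barcodes with early B-like genes described above. The part of those barcodes was not tested. At D14 S100a4 and Mki67 each had a UMI in 17.7% of mature B-like barcodes, as did Ank3, a gene of the early B-like class.

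Barcodes left out for their mitochondrial share also held early B-like cells, outside the comparisons above. Among barcodes with at least 200 genes that were left out, 17 of 562 at D11 (3.02%, 1.77 to 4.80) and 230 of 1430 at D14 (16.1%, 14.2 to 18.1) passed the early B-like gate, against 0 of 511 in the naive library (up to 0.719%).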

How the results depend on the processing

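No paired analysis was possible because each time point is 1 library, and for the same reason no library could be left out. Of the main results' alternatives, 196 kept direction and size, 63 moved and 1 turned its direction. Counts of genes could only be marked as kept or moved, so a changed balance of higher and lower genes was not marked as turned. The early B-like ratio of 8.29 was 23.9 and early per mature B-like barcodes (D14 over D11, 36.6) 109.5 without the 5% of barcodes with the most UMIs, which kept 25 of 98 early B-like barcodes at D11 and 577 of 785 at D14. The erythroid-like ratio was 0.303 under a stricter barcode filter, 500 genes or more and mitochondrial UMIs up to 5% (136 and 40 barcodes). After thinning, the mature neutrophil-like ratio was 0.651, and CD4 per CD8 T-like barcodes turned from 0.557 to 1.08. Other composition ratios kept their direction, from 2.78 to 3.27 for ncMono-like, 0.559 to 0.731 for cMono-like and 0.353 to 0.467 for T-like barcodes.

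Counts of genes past 2-fold depended most on the total and on the minimum level. In the whole sum, 2702 higher and 245 lower genes became 4268 and 137 over all deposited barcodes, 858 and 568 without erythroid-like barcodes, 1018 and 508 with the stricter filter, 663 and 637 with TMM factors, 668 and 637 with median of ratios, 926 and 610 without hemoglobin genes, 6543 and 1372 with no minimum and 538 and 49 at 100 CPM or more, and 853 were higher by the mean of per-barcode CPM. With no minimum, the higher and lower genes were 755 and 1142 in ncMono-like, 1301 and 756 in cMono-like, 1062 and 698 in immature neutrophil-like, 1356 and 1103 in mature neutrophil-like, 747 and 862 in T-like and 2331 and 963 in erythroid-like barcodes. At 100 CPM or more, 15 were lower in ncMono-like and 27 in mature neutrophil-like barcodes, and the numbers were 33 and 29 in cMono-like, 22 and 9 in immature neutrophil-like, 14 and 6 in T-like and 2 and 17 in erythroid-like barcodes. By the mean of per-barcode CPM, 118 and 91 passed in mature neutrophil-like barcodes and 17 were lower in T-like barcodes. In erythroid-like barcodes the stricter filter gave 165 and 74, TMM factors 3 and 63, median of ratios 3 and 61, and leaving out hemoglobin genes 210 and 190. Of 191 list genes in the whole sum, 50 were higher and 41 lower. Higher ones were 31 without erythroid-like barcodes, 24 with TMM factors, 24 with median of ratios and 26 at 100 CPM or more, and lower ones 27 over all deposited barcodes, 65 with TMM factors, 65 with median of ratios, 64 without hemoglobin genes and 23 at 100 CPM or more.

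Depth limits classes with few barcodes, such as NK-like (53 at D14) and mature B-like (62 at D14).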

Other observations

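Klf2 and Klf6, zinc finger factors of lymphocyte trafficking and growth control, were also higher in early B-like barcodes at D14, at 35.3 and 101 CPM and at 30.9 and 87.0 CPM. After thinning to 1000 UMIs, however, a Klf2 UMI was found in 11.2% (5.74 to 19.2) of these barcodes at D11 and 8.70% (6.82 to 10.9) at D14, so that its CPM and its share of barcodes did not order the libraries alike. Ccr7, the lymph node homing receptor, was 201 and 63.1 CPM in mature B-like barcodes (log2 ratio -1.67, -2.16 to -1.22). The plasma cell gene Jchain was 177 and 11.5 CPM there, with 78.9% of its D11 UMIs in 1 barcode. The D14 sum of the mature B-like class held the barcodes with early B-like genes described above. Cdkn2a was 308 CPM in this class at D14, against 1.78 at D11. The part of those barcodes in the Ccr7 and Jchain values was not tested.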
